A study of Homo sapiens with 6 samples.

Results

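F-box protein genes were taken as the rows of the gene count table whose symbol starts with FBXL, FBXO or FBXW and ends in a number, with or without a letter. The rule gave 64 of 36517 genes, of which 37 were FBXO, 18 FBXL and 9 FBXW genes, spread over 20 chromosomes. FBXO2 was named by the study for its expression in these same libraries, so its values are described here without a test. The other members were chosen by symbol, but with earlier results of these data known. RNA was sequenced from MDA-MB-453, an established human breast cancer cell line, at day 3. The 3 control libraries came from cells carrying a lentiviral control hairpin, and the 3 shtRF libraries from cells carrying a lentiviral short hairpin directed at tRF-1-Ser, a small RNA cut from the 3′ trailer of a serine tRNA precursor. All 6 libraries were from the same line, and the paper describes the sequencing replicates as biological. The sources used here do not state whether replicates were separate transductions, so the spread between them may still be technical. The small RNA itself is not measured in these mRNA libraries, and the depletion could therefore not be checked here. The paper reports a qPCR check of knockdown efficiency in its cell models.

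An F-box is a short motif through which a protein binds SKP1 and so joins the scaffold CUL1 and the RING protein RBX1 in an SCF (SKP1-CUL1-F-box) ubiquitin ligase. The rest of the F-box protein binds the substrate. FBXW proteins carry WD40 repeats for this, FBXL proteins leucine-rich repeats, and FBXO proteins other domains. FBXO2, FBXO6, FBXO17, FBXO27 and FBXO44 share an F-box-associated (FBA) domain. In FBXO2, which is best known from neurons, and in FBXO6 and FBXO27 this domain binds N-linked glycans, and FBXO2 and FBXO6 are known for sending misfolded glycoproteins from the endoplasmic reticulum to the proteasome.

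FBXO2 lies on chromosome 1 (GRCh38, chr1:11648367-11655785, minus strand). FBXO44 lies beside it on the opposite strand (chr1:11654375-11663327), and FBXO6 follows FBXO44 on the plus strand (chr1:11664124-11674354). The 5′ exons of FBXO2 and FBXO44 overlap, and 267 bases, 11.4% of the exonic length of FBXO2 and 7.57% of that of FBXO44, belonged to both. FBXO17 and FBXO27 form a second pair on chromosome 19 (chr19:38941401-38975910 and chr19:38990714-39032785, both minus strand).

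The RefSeq start windows of FBXO2 and FBXO44 are printed because they are partly the same DNA read on opposite strands. On GRCh38.p14 the FBXO2 window is chr1:11654380-11654679 (minus strand) and the FBXO44 window is chr1:11654157-11654456 (plus strand). Each is written 5′ to 3′, and capitals mark the 77 bases that both windows hold, chr1:11654380-11654456.
FBXO2: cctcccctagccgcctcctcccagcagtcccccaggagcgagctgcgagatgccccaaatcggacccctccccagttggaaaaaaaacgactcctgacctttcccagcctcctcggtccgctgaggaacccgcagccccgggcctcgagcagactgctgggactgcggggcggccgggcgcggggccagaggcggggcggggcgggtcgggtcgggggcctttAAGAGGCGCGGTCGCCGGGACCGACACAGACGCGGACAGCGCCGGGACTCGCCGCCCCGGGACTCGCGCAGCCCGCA
FBXO44: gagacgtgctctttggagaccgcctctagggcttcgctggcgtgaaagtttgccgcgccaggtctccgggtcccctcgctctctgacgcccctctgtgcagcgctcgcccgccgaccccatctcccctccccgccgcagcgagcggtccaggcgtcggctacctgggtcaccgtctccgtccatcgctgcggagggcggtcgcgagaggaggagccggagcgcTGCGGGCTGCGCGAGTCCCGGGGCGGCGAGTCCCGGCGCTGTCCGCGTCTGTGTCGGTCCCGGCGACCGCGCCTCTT
The capitals of the first sequence are the reverse complement of the capitals of the second. The GC content was 73.3% in the FBXO2 window and 73% in the FBXO44 window. Both were searched on either strand for CACGTG, the E-box bound by MYC and other basic helix-loop-helix factors, and for ACGTG, the core of the hypoxia response element, which every CACGTG also holds. CACGTG was in neither window, and ACGTG was in that of FBXO44 but not in that of FBXO2. Over all 35116 RefSeq start windows CACGTG was present in 7.26% and ACGTG in 21.4%. Of the 64 F-box genes, 49 had such a window, and 13 of these genes (26.5%) held ACGTG in a window and 5 (10.2%) CACGTG, beside 24.9% and 8.77% of all genes with a window.

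FBXO2 was lower in every shtRF library than in every control library, from an already low level. Its counts were 91, 94 and 92 in control replicates 1 to 3, and 16, 28 and 29 in shtRF replicates 1 to 3. In CPM, the count scaled to a common library size by trimmed mean of M values, control cells held FBXO2 at 1.40, 1.24 and 1.15, and shtRF cells at 0.228, 0.408 and 0.468. The lowest control library was above the highest shtRF library, and shtRF replicate 1 was the lowest of all. The group means were 1.27 ± 0.125 and 0.368 ± 0.125 CPM (mean ± SD, n = 3), a log2 fold change of -1.78 ± 0.30 (standard error), or 3.44-fold lower in the shtRF libraries. Per length, FBXO2 went from 0.552 to 0.154 RPKM (group means of the count per kilobase of exon, scaled to the library total), against a median of 2.12 RPKM over the tested F-box genes.

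FBXO44, the closest neighbour and an FBA-domain paralog, was lower on average, but its groups overlapped. Control cells gave 145, 196 and 203 counts of FBXO44, and shtRF cells gave 158, 85 and 93. As CPM these were 2.23, 2.59 and 2.54 against 2.25, 1.24 and 1.50. The first shtRF library, which had the lowest FBXO2, thus had FBXO44 within the control range, and only the other 2 were below it. The log2 fold change of FBXO44 was -0.56 ± 0.20 (adjusted p = 0.03, edgeR quasi-likelihood test with Benjamini-Hochberg adjustment over all genes tested). That call was lost in 5 of 14 alternatives, with adjusted p up to 0.167 without shtRF replicate 2, and also without shtRF replicate 3 (0.109), control replicate 2 (0.0836) or control replicate 3 (0.0665). Without shtRF replicate 1 the log2 fold change of FBXO44 was larger, at -0.85 (edgeR adjusted p = 0.00259).

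The ratio of FBXO2 to FBXO44 RPKM within a library set the neighbours side by side. Control cells had ratios of 0.949, 0.725 and 0.685, and shtRF cells 0.153, 0.498 and 0.471, so every shtRF library had a lower ratio than every control library. The log2 fold change of FBXO2 was lower than that of FBXO44 by a difference of -1.22, which became -0.68 without shtRF replicate 1. No test is given for this difference, because FBXO2 was chosen for its own. The overlapping bases could in principle carry reads of both genes, and how the counting used strand is not given in the sources used here.

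**Figure D1:**
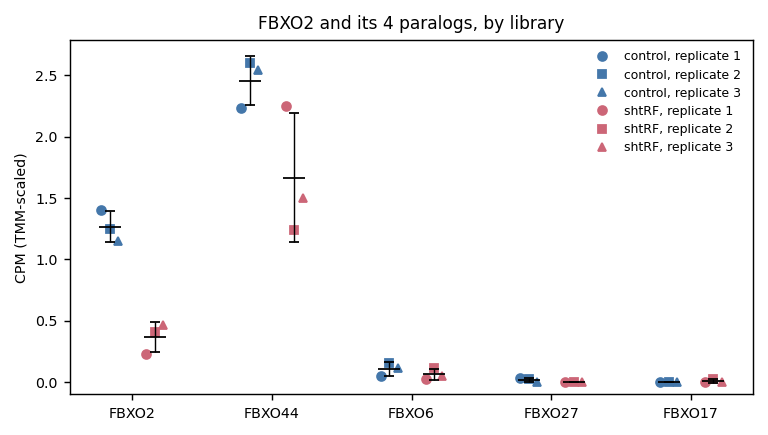
CPM of FBXO2, FBXO44, FBXO6, FBXO17 and FBXO27 in each of the 6 libraries, with points for single libraries and bars for the mean ± SD of each group (n = 3). FBXO2 falls from 1.27 to 0.368 CPM without overlap, FBXO44 overlaps between the groups, and the remaining genes lie near 0.

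The remaining FBA-domain paralogs, FBXO6, FBXO27 and FBXO17, gave few or no reads. FBXO6 had 3, 12 and 9 counts in the control and 2, 8 and 3 in the shtRF libraries. For FBXO27 the control libraries gave 2, 2 and 0 counts, and no shtRF library gave any. FBXO17 had 2 counts in shtRF replicate 2 and none in any other library. These genes were under the low-count filter and were not tested, and no change of theirs was detectable at this depth. FBXO2 therefore was the glycan-binding F-box gene with the most reads in the control cells, at 0.552 RPKM against 0.0596 RPKM for FBXO6.

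**Figure D2:**
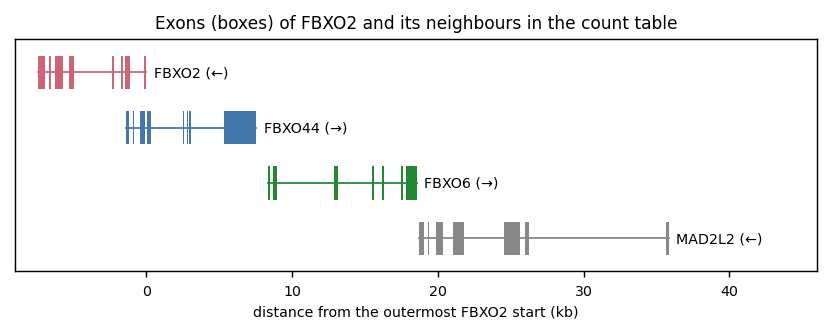
Exon map of FBXO2, FBXO44, FBXO6 and MAD2L2 from the count table's own exon coordinates, drawn as distance in kilobases from the start of FBXO2, with boxes for exons and arrows for strand. The starts of FBXO2 and FBXO44 overlap by 267 exonic bases, and FBXO6 lies beyond FBXO44.

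MAD2L2, next to FBXO6 and no F-box gene, had 830, 1079 and 980 counts in the control and 726, 804 and 679 in the shtRF libraries, a log2 fold change of -0.25 ± 0.09 (edgeR adjusted p = 0.0253).

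Across the family, changes went both ways. Of the 64 genes, 57 passed the low-count filter, none of them through 1 group alone. Leaving out FBXO2, which was chosen for its change, 15 of the other 56 were higher and 14 lower in the shtRF libraries at an adjusted p under 0.05 (edgeR). That is 26.8% higher and 25.0% lower, beside 20.6% of all 19628 tested genes higher and 18.9% lower. In either direction, 39.5% of all genes were called, so a called gene was common in these libraries. The groups did not overlap for 17 of these 56 members higher and 15 lower, beside 24.9% and 23.8% of all genes. Calls that were also over 1.5-fold were rarer, at 3 of these members higher and 4 lower, beside 6.22% and 6.83% of all genes. The median log2 fold change was -0.02 over the 57 tested members and -0.00 over all tested genes. Among FBXL genes 7 rose and 3 fell of 17 tested, among FBXO genes other than FBXO2 6 rose and 9 fell of 30, and among FBXW genes 2 rose and 2 fell of 9. The difference between subfamilies was not tested.

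**Figure D3:**
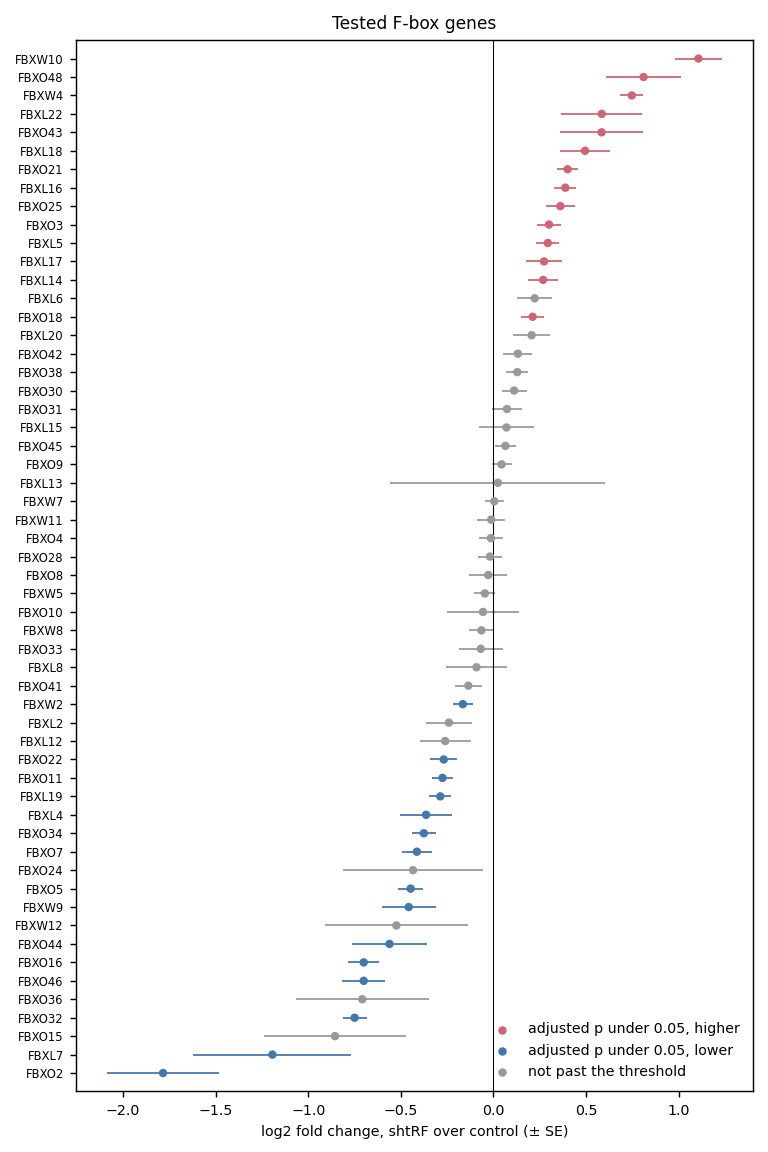
Log2 fold change (shtRF over control) of 56 of the 57 tested F-box genes in order of size, 1 member being left undrawn, with bars for the standard error from edgeR and colours for the call. Most members lie within 0.5 of 0, with FBXO2 and FBXL7 at the low end and FBXW10 at the high end.

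The members that rose were led by 3 genes. FBXW10 (chr17:18744024-18779349) was at 3.07, 3.20 and 4.17 CPM in control cells and rose to 7.02, 7.60 and 7.97 CPM in shtRF cells. This was a log2 fold change of 1.11 ± 0.13 (edgeR adjusted p = 3.42e-07). FBXW10 shares 33.6% of its 75-base transcript words with CDRT1, another F-box gene of chromosome 17 that rose by 0.94. Some reads might therefore not tell this pair apart, and how many were affected was not tested. FBXW4 (chr10:101610664-101695295), a WD40 gene at a locus linked to split hand and foot malformation, went from 23.8, 21.8 and 23.9 CPM to 37.7, 38.5 and 40.3 CPM. Its groups were far apart relative to their spread, with a log2 fold change of 0.75 ± 0.06 (edgeR adjusted p = 3.43e-09). FBXO48, on chromosome 2, went from 0.953, 1.30 and 1.10 CPM to 2.09, 1.79 and 2.02 CPM, a log2 fold change of 0.81 ± 0.20 (adjusted p = 0.00258, edgeR).

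FBXO21, FBXL16 and FBXO25 rose by smaller amounts. FBXO21, on chromosome 12, went from 87.0, 91.4 and 92.9 CPM to 112, 118 and 128 CPM (log2 fold change 0.40 ± 0.06, edgeR adjusted p = 6.26e-06). At 16.9 RPKM in the shtRF libraries it stood beside FBXW7 as the member with the most reads per length. FBXL16, on chromosome 16, went from 31.6, 31.3 and 33.8 CPM to 40.9, 43.6 and 42.0 CPM (0.39, edgeR adjusted p = 1.61e-05). FBXO25, on chromosome 8, is the closest paralog of FBXO32, and it rose from 13.5, 13.0 and 14.9 CPM to 17.1, 17.8 and 18.3 CPM (0.36, edgeR adjusted p = 7.51e-04). In all 3 genes every shtRF library was above every control library.

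FBXL18 and FBXL22 also rose, but less stably. FBXL18, on chromosome 7, had 3.89, 3.56 and 3.71 CPM in the control and 4.64, 4.81 and 6.29 CPM in the shtRF libraries (log2 fold change 0.49 ± 0.13, edgeR adjusted p = 0.00536), and without shtRF replicate 3, its highest library, the adjusted p was 0.0628. FBXL22, on chromosome 15, was near 1 CPM and went from 0.799, 1.20 and 1.18 to 1.61, 1.53 and 1.66 CPM (adjusted p = 0.0386, edgeR). Its call was lost in 5 of 14 alternatives, and 26.6% of its exonic bases also belong to USP3-AS1 on the opposite strand.

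The remaining members that passed the test upwards did so by 0.21 to 0.30 on the log2 scale, apart from FBXO43. FBXL5, the iron sensor that degrades iron regulatory protein, rose by 0.29, FBXO3 by 0.30 and FBXL14, known for degrading SNAI1, by 0.27 (edgeR adjusted p = 0.00966, and 0.0649 without control replicate 1). FBXL17, which checks the dimers of BTB proteins, rose by 0.27 (edgeR adjusted p = 0.0321) and lost its call in 7 of 14 alternatives. FBXO43, the meiotic inhibitor of the anaphase-promoting complex, had a log2 fold change of 0.58 (adjusted p = 0.0425, edgeR) with overlapping groups, and lost its call in 6. FBXO18, the DNA helicase now named FBH1, rose by 0.21 with overlapping groups (adjusted p = 0.0112, edgeR), a call lost in 4 alternatives.

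FBXO32 was the clearest fall among the abundant members. FBXO32 (chr8:123497889-123541206) encodes atrogin-1, the ubiquitin ligase subunit known from muscle wasting and a target of FOXO transcription factors. Control cells held it at 33.7, 34.5 and 32.5 CPM and shtRF cells at 19.1, 20.3 and 20.5 CPM. This gave a log2 fold change of -0.75 ± 0.06 (edgeR adjusted p = 4.29e-09), opposite in sign to that of its paralog FBXO25.

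FBXO16, on chromosome 8, and FBXO46, on chromosome 19, fell by like amounts but overlap other genes. FBXO16 had 17.7, 16.8 and 16.6 CPM in the control and 11.4, 9.73 and 10.3 CPM in the shtRF libraries (log2 fold change -0.70 ± 0.08, edgeR adjusted p = 5.12e-07). Its exonic bases were 51.4% shared, mainly with ZNF395 on the same strand, which had a log2 fold change of -0.68. FBXO46 went from 8.93, 9.11 and 8.27 CPM to 6.21, 4.47 and 5.50 CPM (-0.70 ± 0.11, edgeR adjusted p = 4.02e-05), with 14.4% of its exonic bases in AC007191.4 on the same strand, at -0.52. How much of either fall came from the shared bases was not tested.

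FBXO5, on chromosome 6, encodes EMI1, which holds the anaphase-promoting complex inactive in S and G2 phase. FBXO5 was at 36.1, 32.4 and 37.3 CPM in the control and at 24.2, 27.3 and 26.0 CPM in the shtRF libraries. The groups did not overlap, and the log2 fold change was -0.45 ± 0.07 (edgeR adjusted p = 1.75e-05). Its meiotic relative FBXO43 was measured at a far lower level, 0.340 against 9.36 RPKM in the control libraries.

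FBXO7, on chromosome 22, acts with PINK1 and parkin in mitophagy and is mutated in early-onset parkinsonism. It went from 22.8, 19.9 and 19.1 CPM to 16.4, 15.5 and 14.4 CPM (log2 fold change -0.41 ± 0.08, edgeR adjusted p = 3.09e-04). FBXL4, on chromosome 6, which restrains mitophagy receptors, was at 3.35, 3.67 and 3.24 CPM against 2.59, 2.74 and 2.64 CPM. Its groups did not overlap, but its log2 fold change of -0.36 ± 0.14 (edgeR adjusted p = 0.0444) lost its call in 7 of 14 alternatives, the replicate block included (0.0514).

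**Figure D4:**
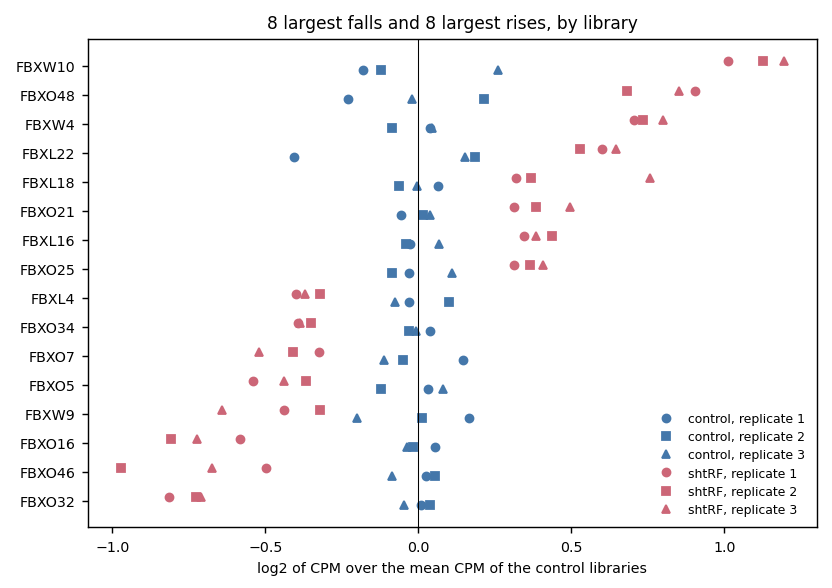
The 8 largest falls and 8 largest rises that passed the test without overlap among members with a mean of at least 1 CPM, FBXO2 left out, 1 gene a row, with a point for each of the 6 libraries at the log2 of its CPM over the mean CPM of the 3 control libraries. The shtRF points of FBXW10, FBXW4, FBXO48, FBXO32 and FBXO16 lie far from the control points, and those of FBXW9 come closest to its control points.

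FBXO34, on chromosome 14, fell from 25.2, 24.1 and 24.4 CPM to 18.7, 19.3 and 18.8 CPM (log2 fold change -0.38 ± 0.07, edgeR adjusted p = 9.68e-05). FBXW9, on chromosome 19, went from 4.29, 3.85 and 3.33 CPM to 2.82, 3.06 and 2.45 CPM (-0.46 ± 0.15, edgeR adjusted p = 0.0164), and its adjusted p was 0.0783 without control replicate 1 and 0.0850 without shtRF replicate 3. Of the exonic bases of FBXW9, 12.9% also belong to CTD-2659N19.2 on the opposite strand. FBXL7 had the second lowest log2 fold change after FBXO2, -1.19 ± 0.43 (edgeR adjusted p = 0.03), on 33, 29 and 33 counts in the control and 14, 14 and 10 in the shtRF libraries. FBXL7 is a known substrate of FBXL18, and its call was lost in 7 of 14 alternatives. FBXL19, which binds unmethylated CpG islands, fell by 0.29 on the log2 scale, and FBXO11, known for degrading BCL6, fell by 0.28 with 26.9% of its exonic bases shared with MSH6. FBXO22 fell by 0.27, with 16.2% of its exonic bases shared, mainly with NRG4, and FBXW2 fell by 0.17 (adjusted p = 0.0206, edgeR, lost in 3 alternatives).

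The members with the most reads per length that did not pass the test were FBXW7, FBXW5, FBXO45 and FBXO4. FBXW7, the tumour suppressor that sends cyclin E, MYC and NOTCH to the proteasome, was at 174, 175 and 173 CPM in control cells, beside 169, 179 and 176 CPM in shtRF cells. The log2 fold change was 0.00 ± 0.05 (edgeR adjusted p = 0.959), and at 17.2 RPKM in the control libraries it was the highest member. The log2 fold changes were -0.05 ± 0.06 for FBXW5, 0.06 ± 0.06 for FBXO45 and -0.01 ± 0.07 for FBXO4.

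In all, 27 members did not pass, with log2 fold changes from -0.86 to 0.22, and the groups did not overlap for 6 of them. Over all tested genes, groups without overlap (24.9% higher, 23.8% lower) were likewise more common than calls (20.6% higher, 18.9% lower). Those shares include called genes, so they are not the matching share for the 27 members. The widest log2 fold changes of the 27 members were in low-count genes. These were FBXO15 at -0.86 ± 0.38 (edgeR adjusted p = 0.0832, and 0.0482 where each library had to hold 10 counts or more), FBXO36 at -0.71 ± 0.36, FBXW12 at -0.52 ± 0.39 and FBXO24 at -0.43 ± 0.38. FBXL12 and FBXL2 were at -0.26 ± 0.14 and -0.24 ± 0.12, and FBXO41 at -0.14 ± 0.07. Log2 fold changes within 0.1 of 0 were measured for FBXL8, FBXO33, FBXW8, FBXO10, FBXO8, FBXO28, FBXW11 (the second beta-TrCP), FBXL13, FBXO9, FBXL15 and FBXO31. Their standard errors ran from 0.05 for FBXO9 to 0.58 for FBXL13, with 0.16 for FBXL8 and 0.20 for FBXO10. FBXL8 and FBXO10 shared 30.9% and 48.0% of their exonic bases, mainly with genes on the same strand. Of all 64 members, 17 shared 10% or more of their exonic bases with other genes. FBXL13 had only 6 to 15 counts in a library, so its change could not be judged. FBXO30, FBXO38, FBXO42, FBXL20 and FBXL6 were at 0.11, 0.13, 0.13, 0.21 and 0.22. FBXO41 passed without shtRF replicate 3 (adjusted p = 0.0483, edgeR) and FBXL20 without control replicate 1 (0.032). Besides FBXO6, FBXO17 and FBXO27, the members not tested were FBXO39, FBXO40, FBXO47 and FBXL21, and no untested member had more than 12 counts in any library.

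F-box genes with other symbols, taken as a list of 9, gave 4 higher and 2 lower of 7 tested (edgeR), or 57.1% and 28.6%, beside 20.6% and 18.9% of all genes. LMO7, a LIM and calponin-homology protein with an F-box, rose from 31.7 to 73.3 CPM (log2 fold change 1.21). CDRT1 went from 6.21 to 11.9 CPM, with 36.7% of its exonic bases shared, mainly with RP11-385D13.1 on the same strand. KDM2A, a histone demethylase, rose by 0.26 and BTRC, the first beta-TrCP, by 0.21 (adjusted p = 0.0179, edgeR, lost in 3 alternatives). SKP2, which degrades the CDK inhibitor CDKN1B, fell from 13.0 ± 1.25 to 9.36 ± 0.28 CPM (-0.48, edgeR adjusted p = 1.82e-04), and CCNF, cyclin F, fell by 0.26 (edgeR adjusted p = 0.0073).

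The SCF core and its ubiquitin-conjugating partners gave 3 higher and 4 lower of 15 tested, 20.0% and 26.7% beside the same 20.6% and 18.9% of all genes, with a median log2 fold change of -0.05. CUL1, the scaffold, fell from 64.1 ± 3.25 to 51.1 ± 0.739 CPM (-0.33, edgeR adjusted p = 6.45e-05). RBX1, the RING subunit, fell by 0.21 (adjusted p = 0.03, edgeR), a call lost in 4 alternatives, while SKP1, the adaptor that binds the F-box, was at -0.05 ± 0.05 (adjusted p = 0.514). CKS1B, the cofactor of SKP2, and UBE2D2 both fell by 0.32. The conjugating enzymes UBE2D1 and CDC34 rose by 0.49 and 0.40, and ARIH1, a ligase that works with neddylated cullins, rose by 0.33. The number lower was 2 without control replicate 2.

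Genes of cullin neddylation and of the COP9 signalosome, which removes NEDD8 from cullins, gave 4 higher and 4 lower of 24 tested, with a median of -0.03. Each direction held 16.7% of the list, below the 20.6% and 18.9% of all genes. COPS5, the catalytic subunit of the signalosome, rose by 0.49 and COPS6, its partner, by 0.46. DCUN1D4 and DCUN1D5, which help attach NEDD8, fell by 0.40 and 0.24. The number lower was 2 without shtRF replicate 3.

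Glycoprotein degradation from the endoplasmic reticulum, the process in which FBXO2 acts, gave 11 higher and 3 lower of 24 tested genes (edgeR), 45.8% and 12.5% beside the 20.6% and 18.9% of all genes, with a median log2 fold change of 0.13. The lectin OS9, which hands misfolded glycoproteins to the retrotranslocation complex, rose from 675 to 1056 CPM (0.64), and its partner SEL1L rose by 0.57. SEC61B, a translocon subunit, fell by 0.60 from 5.48 to 3.61 CPM. The lectin chaperone CANX fell by 0.30, while CALR, in the same list, rose by 0.35 (edgeR adjusted p = 4.62e-05). The tested genes of this list had a median of 8.85 RPKM, beside 2.38 RPKM over all tested genes. The part of expression level in these shares was not tested. The lists were written with earlier results of these data known. These counts describe the lists, and no test of the lists against other genes was made.

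**Figure D5:**
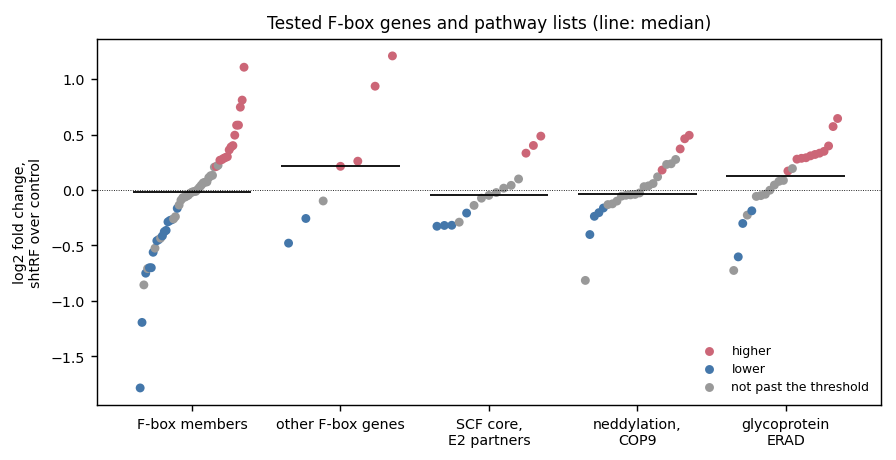
Log2 fold change (shtRF over control) of each tested gene in the pathway lists, coloured by call, with the median of each list drawn as a line. The glycoprotein degradation list has a median of 0.13, and the SCF and neddylation lists have medians near 0.

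Library totals ranged from 63541413 to 78917459 counts. The line's markers KRT8, KRT18, KRT19, EPCAM, ERBB2, FOXA1 and GATA3 had means over the 6 libraries of 33.8 to 454 RPKM. PTPRC, PECAM1, COL1A2, ESR1 and PGR, which mark other cells or receptors this line lacks, had means of no more than 0.0151 RPKM. Their highest single value was 0.0274 RPKM, for ESR1 in shtRF replicate 1. ESR1 had 6, 5 and 4 counts in the control and 26, 8 and 9 in the shtRF libraries, and was not tested. Of these 7 line markers, 2 rose and 2 fell (edgeR). Low even counts were common, since 75.4% of counts from 1 to 4 were even against 50.4% of counts of at least 1000, so both mates of a pair may have been counted. The 91 counts of FBXO2 may then stand for fewer fragments, and with counts halved 15 members were higher and 15 lower, FBXO2 included.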

How the data were processed

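Gene counts of 3 control and 3 shtRF libraries of MDA-MB-453 cells were used as deposited; the submitters' processing notes name Trimmomatic 0.36, featureCounts from Subread 1.5.1, edgeR 3.12.1 and GRCh38. Libraries were stranded and made from mRNA; whether counting used strand is not given in the sources used here. The RPKM table deposited by the authors was read for 4997 genes, 12 of them members, and its values equalled RPKM recomputed here from counts and exonic lengths within a tolerance of 1e-05 for 100% of the values of the 4991 genes matched. The aligner is not given in the sources used here.

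Members and lists were chosen with earlier results of these data known. Counts were filtered (filterByExpr, minimum count 10), scaled by trimmed mean of M values and tested with the quasi-likelihood test of edgeR 4.0.16 in R 4.3.3, with Benjamini-Hochberg adjustment over 19628 genes and a threshold of 0.05. CPM and RPKM in the text were computed from the deposited counts. Depth was 63541413 to 78917459 counts, and the coefficient of variation between replicates was 7.56%. The fit was tested on simulated data. Named were the FBA paralogs; of members passing the test with a mean of at least 1 CPM and groups that did not overlap, the 8 largest rises and 8 largest falls; the 4 members highest in RPKM that did not pass; in each pathway list the 2 largest rises and falls, with SCF genes; the other members were named by group, level or change, except 1 member that is counted but not reported here by name. ARIH1, UBE2D2, KDM2A, MAD2L2 and CALR were named after their values were seen. Alternatives were other scalings and filters, DESeq2 1.42.0, limma 3.58.1 on log2(RPKM + 1), a replicate block, halved counts, leaving out each library, and, chosen after seeing the data, members of at least 1 CPM. UFD1 was matched by its older symbol, and NCCRP1 was not matched.

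Replicate numbers were checked for pairing. After subtracting group means, libraries 1, 2 and 3 of both groups correlated at 0.0185, -0.0029 and 0.0045, so same-numbered libraries showed no shared deviation. Whether they were prepared together cannot be told from these values, and the main fit used no pairing.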

Additional observations from a re-analysis of the deposited data

How the results depend on the processing

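Of 1048 values of the named genes under the alternatives, 989 kept their side of the threshold, 56 were no longer past it, 3 became so and 0 reversed. A change of sign counted as kept where neither fit passed the threshold, as for FBXL13, which ran from -0.41 to 0.31. Of the members called, FBXO2 left out, 9 of 15 higher and 9 of 14 lower kept their call in every alternative run. Counted with FBXO2, the 15 higher and 15 lower members were 12 and 15 under upper quartile scaling, 11 and 13 with limma-trend on log2(RPKM + 1), 15 and 15 with DESeq2, and 13 and 9 among the 41 tested members with under 10% shared exonic bases. Leaving out each library gave 11 to 15 higher and 11 to 13 lower. Of all calls, 52.2% were higher, 45.7% under upper quartile scaling and 43.3% with limma-trend. The median of the members, -0.02, was -0.0548 under upper quartile scaling, -0.0373 with at least 10 counts in every library, -0.0583 with limma-trend, -0.0362 with halved counts and -0.0281 to 0.0022 without each library; the cause was not tested. On log2(RPKM + 1), which compresses low genes by construction, the FBXO2 log2 fold change was -0.43 and its difference from FBXO44 -0.20, against -1.78 and -1.22; without each library they ranged from -1.99 to -1.54 and from -1.49 to -0.68. The neddylation list had 2 higher with limma-trend and, without each library, 2 to 5 lower; the SCF list had 2 to 5 lower. With the replicate block, 15 members were higher and 14 lower, the log2 fold change of FBXO2 was -1.80, FBXL4 alone among the members lost its call, and the neddylation list had 6 higher. Members of at least 1 CPM numbered 50, with 15 higher and 13 lower. Counts of FBXO6, FBXO17 and FBXO27 were too few for a comparison.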
